A study of Mus musculus with 5 samples.

Results

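Matrix metalloproteinases and their tissue inhibitors were followed through the cells of the ischemic kidney. The 10 genes described were Mmp2, Mmp7, Mmp8, Mmp9, Mmp12, Mmp14, Mmp19, Timp1, Timp2 and Timp3, chosen by symbol from the 32285 genes of the count matrix, and each had UMIs in the kept cells. Kidneys of male C57BL/6J mice aged 6 to 8 weeks were taken at day 1, day 3, day 14 or day 28 after unilateral ischemia-reperfusion (UIR), in which the left renal pedicle was clamped for 35 min and the right kidney was left in place, or after a sham operation without the clamp. The labels list 5 samples and describe each as taken from 3 mice, whereas the study's methods count more matrices than the 5 libraries found here, so how mice were divided among libraries is not settled and no spread between animals could be measured. The matrix joined 5 libraries that differ only in the number at the end of the cell barcode, and the labels did not say which number was which condition. Libraries are therefore given by number, all cells were analysed as 1 pooled sample, no value is given by time point and no test was made. Class comparisons are described within each library as well, but the libraries are not replicates of a condition. All intervals are 95% intervals for counting error only.

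Matrix metalloproteinases are zinc enzymes that cleave collagens, elastin, basement membrane and many secreted or surface proteins outside the cell. Most are made as inactive precursors and are held in check by the TIMPs, which bind the active enzyme. Mmp8 is a collagenase stored in neutrophil granules, Mmp2 and Mmp9 are gelatinases, Mmp12 is the macrophage elastase, Mmp7 is matrilysin, a small epithelial enzyme, Mmp14 is a membrane-bound enzyme that activates the Mmp2 precursor together with Timp2, and Mmp19 is a secreted enzyme of broad specificity. Timp1 is an inducible secreted inhibitor, Timp2 both inhibits and helps activate Mmp2, and Timp3 is bound to the matrix and also inhibits ADAM proteases. In the injured kidney this family is known for its part in matrix turnover and fibrosis.

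Of 57828 kept cells, 43884 were assigned to classes by marker gates, 2583 were called mixed, and 11361 passed no gate. Mixed cells passed gates of more than 1 lineage, tied between gates, or passed a gate while carrying many proximal tubule markers. The ungated cells lay mainly in libraries 3 to 5, which held 10498 of them, and 9518 had a proximal tubule marker share of 0.5 to 1 times that of the ambient RNA, under the limit of the gate. The gated cells included 3260 myeloid-like, 278 stromal-like, 292 endothelial-like and 38345 tubule-like cells. The median depth of kept cells was 4599 unique molecular identifiers (UMIs), against 1259 in neutrophil-like and 798 in podocyte-like cells. A total of 355 cell barcodes occurred in more than 1 library, on 711 cells. The labels call every sample a goblet cell sample, but of 7 goblet cell markers the highest had 55 UMIs in all kept cells (Agr2) and Zg16 had 0, so the samples were treated as whole kidney. The gate built on Havcr1, Krt20, Sox9, Krt8, Krt18, Krt19, Fgb and Fgg was meant for injured tubule cells, but uroplakin genes and Psca, which are urothelial genes, led its 1205 cells. They are therefore called injury/keratin-gated cells.

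Mmp7, Mmp8 and Mmp12 belong to a cluster of metalloproteinase genes on chromosome 9, in the order Mmp12 (chr9:7344381-7369499), Mmp8 (chr9:7558456-7568485) and Mmp7 (chr9:7692090-7699585), all on the plus strand of GRCm38. They are shown because these neighbours were found in different cells, Mmp12 in macrophage-like, Mmp8 in neutrophil-like and monocyte-like and Mmp7 in epithelial cells. Timp3 (chr10:86300372-86349506, plus strand), which had UMIs in every class, is set beside them. The 250 bases before each start are from RefSeq (GRCm38.p6), read 5′ to 3′ along the gene, and capitals mark 3 motifs. The AP-1 site was searched as TGANTCA. The TATA box was searched as the letters TATAAA on both strands. The GC box was searched as GGGCGG, and like the others a match on the opposite strand shows its reverse complement.
Mmp12, first start, chr9:7344147-7344396, plus strand: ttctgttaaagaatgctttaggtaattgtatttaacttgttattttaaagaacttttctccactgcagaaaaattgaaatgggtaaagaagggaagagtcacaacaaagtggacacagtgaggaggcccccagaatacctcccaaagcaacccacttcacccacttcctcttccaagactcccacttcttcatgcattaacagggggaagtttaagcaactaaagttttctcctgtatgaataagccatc
Mmp12, second start, chr9:7347124-7347373, plus strand: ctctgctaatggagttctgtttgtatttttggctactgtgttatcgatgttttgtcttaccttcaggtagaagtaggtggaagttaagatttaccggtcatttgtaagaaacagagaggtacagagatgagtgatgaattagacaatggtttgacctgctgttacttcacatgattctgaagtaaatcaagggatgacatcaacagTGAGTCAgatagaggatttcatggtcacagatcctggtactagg
Mmp8, chr9:7558179-7558428, plus strand: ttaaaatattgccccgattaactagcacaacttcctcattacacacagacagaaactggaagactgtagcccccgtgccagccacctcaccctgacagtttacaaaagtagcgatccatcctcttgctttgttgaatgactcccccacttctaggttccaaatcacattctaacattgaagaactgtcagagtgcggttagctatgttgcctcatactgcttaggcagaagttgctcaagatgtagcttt
Mmp7, first start, chr9:7691840-7692089, plus strand: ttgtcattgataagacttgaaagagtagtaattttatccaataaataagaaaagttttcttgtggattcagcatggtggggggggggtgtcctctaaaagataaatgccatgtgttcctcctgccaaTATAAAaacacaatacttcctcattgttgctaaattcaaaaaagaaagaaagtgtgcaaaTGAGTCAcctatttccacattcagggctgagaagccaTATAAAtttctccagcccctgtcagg
Timp3, chr10:86300162-86300411, plus strand: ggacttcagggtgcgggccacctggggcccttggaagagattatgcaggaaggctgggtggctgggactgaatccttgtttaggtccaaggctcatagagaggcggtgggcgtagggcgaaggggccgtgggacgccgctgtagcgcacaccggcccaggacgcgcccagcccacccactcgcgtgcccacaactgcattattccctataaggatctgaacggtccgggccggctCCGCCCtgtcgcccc
The AP-1 letters stood 63 bases before the first start of Mmp7 and 44 bases before the second start of Mmp12, and TATAAA stood 26 and 123 bases before the first start of Mmp7. The Mmp8 stretch held none of the 3 motifs, and Timp3 held the GC box 15 bases before its start. Of 32851 mouse promoters of this length, 6.75% held the AP-1 letters, 12.4% the TATA letters and 32.7% the GC box on either strand. The GC content was 38% before the first start of Mmp7 and 44.8% for Mmp8, against 65.6% for Timp3 and a median of 52.4% over all promoters. RefSeq starts were found for 7 of the 10 genes, and the GC box letters also stood before the starts of Timp1, Timp2 and Mmp14, none of which had the AP-1 or TATA letters. A second annotated start of Mmp7, not printed, had 53.2% GC and none of the 3 motifs. The motif positions are descriptions of letters and do not show binding.

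Among the 4 lineages compared, 4 genes were highest in stromal-like cells (Mmp2, Mmp14, Timp1 and Timp2), 4 in myeloid-like cells (Mmp8, Mmp9, Mmp12 and Mmp19), 1 in endothelial-like cells (Timp3) and 1 in tubule-like cells (Mmp7). For Mmp7 the order was not resolved: it had 1.78 UMIs per 1000000 UMIs of the summed cells (CPM) in tubule-like and 1.68 CPM in endothelial-like cells, where it rested on 2 UMIs, and the log2 ratio was 0.09 (-1.78 to 3.14). Of its 408 tubule-like UMIs, 204 were in injury/keratin-gated cells with at least 2 of the urothelial genes listed below. Without cells with such genes, 0 genes were highest in tubule-like cells. The other 9 genes had intervals above 0 between the first and second lineage, from a log2 ratio of 0.97 (0.93 to 1.01) for Timp3 to 8.56 (6.08 to 13.86) for Mmp9. Their direction held in 3 of the 3 libraries that had at least 20 cells of both lineages. A gene was called enriched where its CPM in a lineage was at least 4 times that in all other gated cells, among 14414 genes with at least 100 UMIs. By this rule 2 of the 7 metalloproteinases were enriched in stromal-like cells, 5 in myeloid-like, 2 in endothelial-like and 0 in tubule-like cells. Of the 3 inhibitors 2, 1, 2 and 0 were enriched in the same order. The genes were Mmp2, Mmp14, Timp1 and Timp2 in both stromal-like and endothelial-like cells, and Mmp8, Mmp9, Mmp12, Mmp14, Mmp19 and Timp2 in myeloid-like cells. Tubule-like cells held 228645831 of the 246379207 UMIs of gated cells, so outside that lineage the rule mainly compares with tubule-like cells. In endothelial-like cells Mmp2 was at 9.25 CPM (11 UMIs), against 98.3 CPM in stromal-like cells. The share of all tested genes called enriched was 12.1% in stromal-like, 10.1% in myeloid-like, 11.5% in endothelial-like and 10.9% in tubule-like cells.

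**Figure D1:**
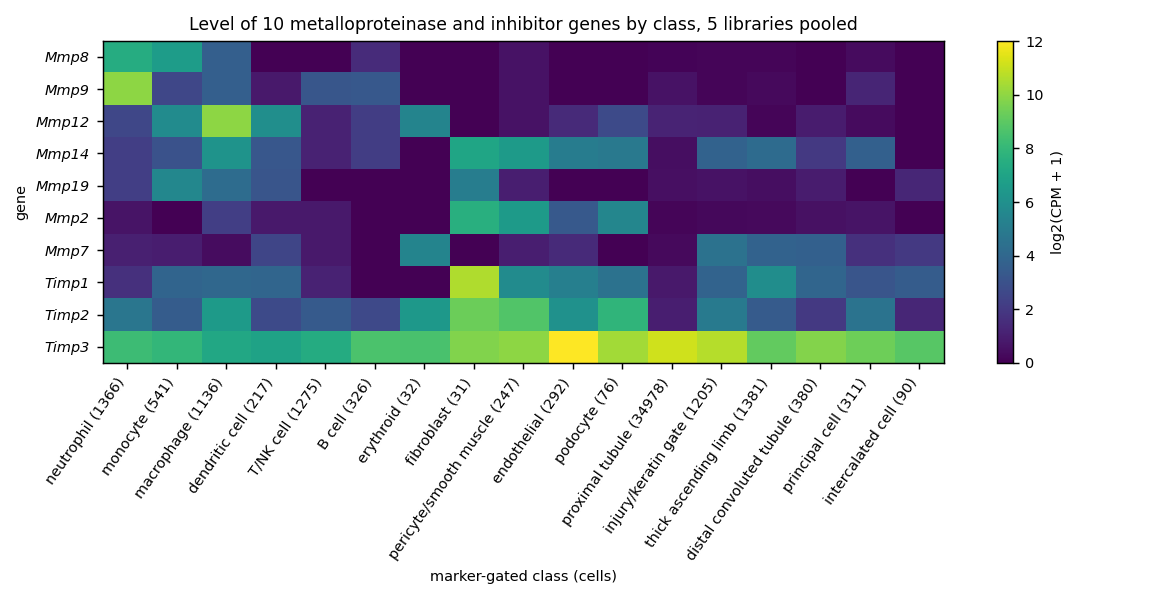
Heat map of the level of each gene, as log2(CPM + 1) of UMIs summed over the 5 libraries, in 17 marker-gated classes with the number of cells in each. Mmp9 was at 1003 CPM in neutrophil-like and Mmp12 at 1008 CPM in macrophage-like cells, while Timp3 was above 100 CPM in every class and at 4152 CPM in endothelial-like cells.

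Mmp8 and Mmp9, the neutrophil enzymes, shared their main class but not their spread. In neutrophil-like cells Mmp8 was at 171 CPM (152 to 190.3, 320 UMIs) and in libraries 1 to 4 at 84.5, 55, 324 and 109 CPM. Library 3 stood above the other 3 libraries, and its interval (284 to 367) did not overlap theirs. Mmp9 was at 1003 CPM and in the same libraries at 915, 1177, 781 and 1139 CPM, so library 3 was the lowest for Mmp9. Library 5 held 2 neutrophil-like cells and is not given. Mmp9 UMIs were found in 60% (57.3 to 62.6) of neutrophil-like cells and Mmp8 UMIs in 12% (10.3 to 13.8), and after each cell was thinned to 1000 UMIs the shares were 53.5% and 11.5%. In T/NK-like cells, which had a median depth of 1644 UMIs, 1.49% held an Mmp9 UMI. An Mmp8 UMI was held by 0 of 1275 of them, which allows up to 0.289%. Of 164 neutrophil-like cells with Mmp8, 78% also held Mmp9, against 57.5% of those without Mmp8, at median depths of 1463 and 1228 UMIs.

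Mmp8 was not limited to neutrophil-like cells. Monocyte-like cells held it at 97.7 CPM (201 UMIs in 107 of 541 cells), with 42.8, 22, 129.7 and 29.5 CPM in libraries 1 to 4. Library 3 was again the highest, and it held 373 of the 541 cells. Mmp9 was at 4.86 CPM in these cells. Against macrophage-like cells, where both genes were at 11.3 CPM, the log2 ratio in neutrophil-like cells was 3.91 (3.53 to 4.31) for Mmp8 and 6.47 (6.11 to 6.84) for Mmp9. With classes taken from Leiden clusters in place of gates the Mmp8 ratio was 1.63 (1.41 to 1.85). The clusters gave no monocyte-like class, so the 541 monocyte-like cells lay in clusters named for other classes. Without library 3 the Mmp8 ratio was 2.89 and without library 2 it was 4.55, and the Mmp9 ratio was 5.79 without library 2 and 8.02 without library 4. Within libraries the Mmp8 ratio ran from 2.20 to 5.10 and the Mmp9 ratio from 4.73 in library 4 to 8.32 in library 2, with no Mmp9 UMI in macrophage-like cells of library 1. Of the 67 Mmp9 UMIs in macrophage-like cells, 58 came from 10 cells and 30 from 1 cell, and 49 of them were in library 4.

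Both classes were divided further by a surface marker. Siglecf is a sialic acid receptor found on some tissue neutrophils. In 127 neutrophil-like cells with a Siglecf UMI, Mmp8 was at 27.9 CPM (9.07 to 65.2, 5 UMIs) against 186 CPM in the other 1239 cells, a log2 ratio of -2.73 (-4.37 to -1.49). Mmp9 went the other way, with 1374 against 964 CPM and a log2 ratio of 0.51 (0.31 to 0.70). Only libraries 2 and 4 had 20 cells of each kind. There Mmp8 was at 9.58 against 61.8 and at 54.9 against 124 CPM, and Mmp9 at 1447 against 1137 and at 1372 against 1076 CPM. The Mmp8 values of the Siglecf-positive cells rest on at most 5 UMIs together. Siglecf-positive cells of library 3, where Mmp8 was highest, numbered 12. Ly6c2, a marker of inflammatory monocytes, was also a marker of the monocyte gate, so cells without it passed by other markers. In monocyte-like cells with a UMI of Ly6c2, Mmp8 was at 161 CPM against 28.5 CPM without it. In library 3 it was at 213 against 30.9 CPM. Libraries 2 (36.2 against 12.3) and 4 (13.4 against 56.8) differed in direction, but their values rest on few UMIs and have no interval here. Mmp9 was at 3.72 and 6.11 CPM in the same cells, with a log2 ratio of -0.72 (-2.98 to 1.36).

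Mmp12 was concentrated in macrophage-like cells, at 1008 CPM (982 to 1034), and this class held 86% of its UMIs in kept cells. Libraries 1 to 5 had 1234, 1898, 102, 149 and 275 CPM. Libraries 1 and 2 were far above the others, with no overlap of their intervals. In neutrophil-like cells Mmp12 was at 4.8 CPM (9 UMIs, all in library 2), a log2 ratio of 7.72 (6.79 to 8.84). The UMIs were unevenly spread: 253 of 1136 macrophage-like cells held any, 10 cells held 1982 of 5949, and 1 cell held 264. Thinned to 1000 UMIs, 15.9% of macrophage-like cells held Mmp12, against 0.117% of proximal tubule-like and 0.086% of T/NK-like cells. Monocyte-like cells held 54.9 CPM, and 107 of the 113 UMIs came from 10 cells. Of the monocyte-like cells, those without Ly6c2 had 113 CPM and those with it 1.86 CPM (2 UMIs). Those without it were at 348, 393, 9.28 and 148 CPM in libraries 1 to 4, and library 3 held 194 of these 277 cells.

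Macrophage-like cells with UMIs of Gpnmb, a lysosomal glycoprotein of lipid-laden macrophages, held more Mmp12 in the pooled cells, at 1776 CPM against 671 CPM (log2 ratio 1.40, 1.33 to 1.48). The same held for Arg1, an arginine-degrading enzyme, with 1432 against 868 CPM. Of libraries 2, 3 and 4, both differences were largest in library 2. There Gpnmb-positive cells were at 2899.9 against 1043 CPM and Arg1-positive cells at 3434 against 1386 CPM. Library 1, with 1506 of the 5949 Mmp12 UMIs of macrophage-like cells, is not given for these splits. In library 3 Mmp12 was at 6.63 against 114 CPM for Gpnmb and at 0 against 153 CPM for Arg1, the opposite direction, and in library 4 it was at 161 against 139 CPM and at 137 against 156 CPM. Gpnmb-positive cells were deeper, with a median of 10009.5 UMIs against 3458, and the part of depth in these differences was not tested.

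**Figure D2:**
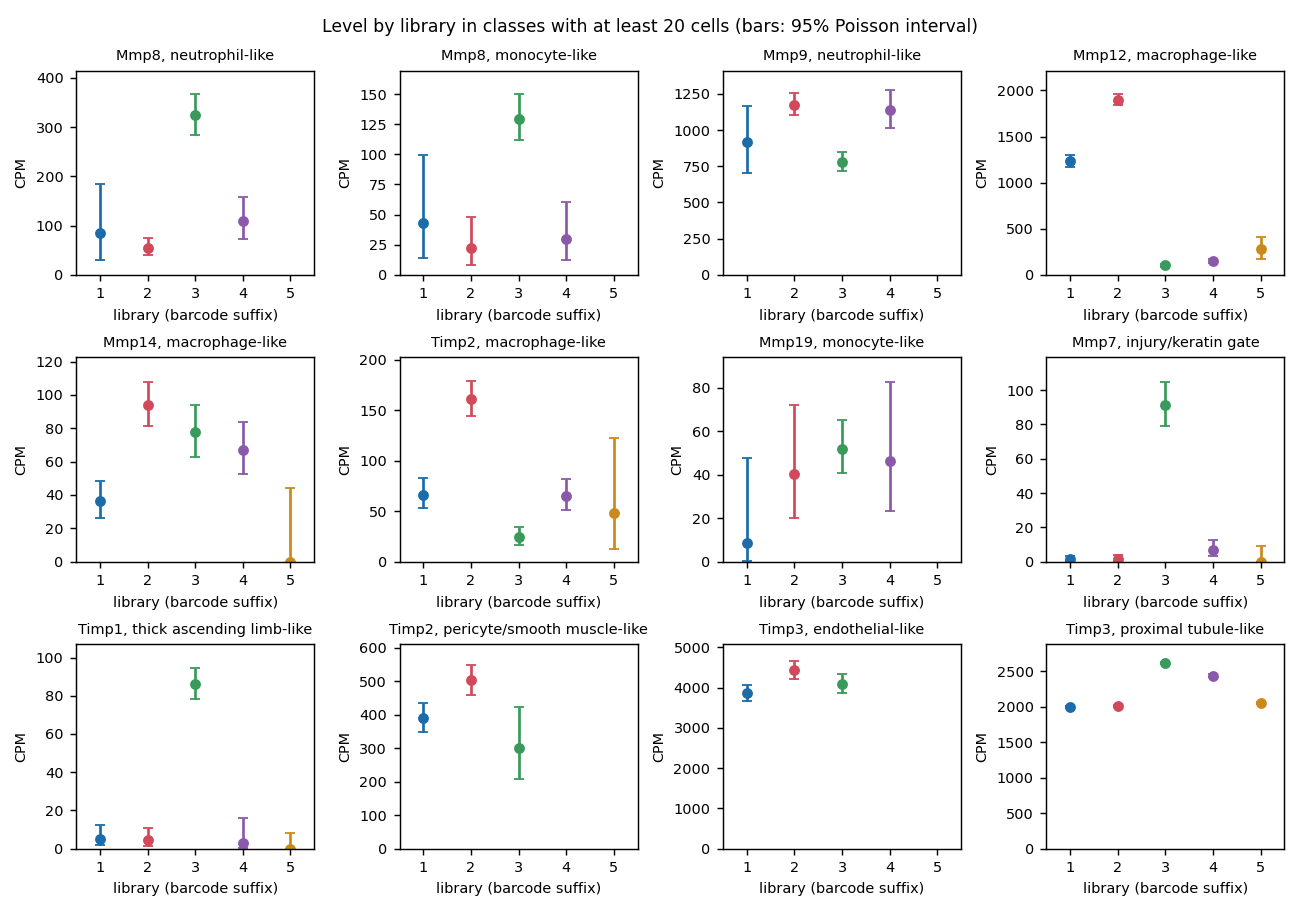
Level in CPM by library for 12 pairs of gene and class, drawn where a library had at least 20 cells of the class, with 95% Poisson intervals. Library 3 was highest for Mmp8 in neutrophil-like cells (324 CPM) and for Mmp7 in injury/keratin-gated cells (91.5 CPM), and libraries 1 and 2 were highest for Mmp12 in macrophage-like cells (1234 and 1898 CPM).

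Mmp14 was found mainly in stromal-like cells and, among myeloid classes, in macrophage-like cells. It was at 132 CPM in fibroblast-like (20 UMIs), 91.3 CPM in pericyte/smooth muscle-like and 71.8 CPM in macrophage-like cells, against 0.358 CPM in proximal tubule-like cells. Endothelial-like cells were at 31.9 CPM, thick ascending limb-like at 17.2 CPM, injury/keratin-gated at 12.7 CPM and principal cell-like at 11.7 CPM. Dendritic cell-like, monocyte-like and neutrophil-like cells were lower, at 8.67, 7.29 and 3.73 CPM. In macrophage-like cells of libraries 1 to 4 it was at 36.1, 94, 77.5 and 66.8 CPM, and in library 5 at 0, where 3 UMIs would have made 35.9 CPM. Library 1 was the lowest of those with UMIs. Its log2 ratio to neutrophil-like cells was 4.27 (3.21 to 5.59), with an interval that reached below 0 in library 1 (-1.20 to 6.69). In pericyte/smooth muscle-like cells the levels were 52.5, 128 and 45.7 CPM in libraries 1 to 3, and again library 2 was the highest. Mmp19 was higher in monocyte-like (46.7 CPM, 96 UMIs) than in macrophage-like cells (18.1 CPM, 107 UMIs). It was not limited to myeloid-like cells, as fibroblast-like cells were at 32.9 CPM (10.7 to 76.7), on 5 UMIs. Monocyte-like cells of libraries 2, 3 and 4 were at 40.3, 51.7 and 46.3 CPM, and library 1 had 1 UMI. Macrophage-like cells were at 8.19, 31.3, 13.9 and 9.66 CPM in libraries 1 to 4. The monocyte-like intervals lay above the macrophage-like ones in libraries 3 and 4, and overlapped them in libraries 1 and 2. Its log2 ratio between macrophage-like and neutrophil-like cells was 2.28 (1.19 to 3.63), with lower bounds under 0 in libraries 1, 3 and 4, and 1.49 without library 2. It was 3.58 with classes from Leiden clusters, which gave no monocyte-like class. With cells thinned to 1000 UMIs it was 1.59 (-0.41 to 4.11), so at that depth the difference was not resolved. An antisense transcript, Gm47093, spans Mmp19, and the sources used here do not state the strand setting of the counting.

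Mmp2, the gelatinase of mesenchymal cells, was at 191 CPM in fibroblast-like cells (29 UMIs) and 91.3 CPM in pericyte/smooth muscle-like cells (181 UMIs), against 9.25 CPM in endothelial-like cells, a log2 ratio of 4.37 (3.32 to 5.52) between fibroblast-like and endothelial-like cells. Pericyte/smooth muscle-like cells were at 119 and 84.4 CPM in libraries 1 and 2. In library 3, with 20 such cells, no Mmp2 UMI was found, which allows 27.4 CPM at 3 UMIs. Only 31 fibroblast-like cells were gated, 11, 7, 12, 1 and 0 in libraries 1 to 5, so no library value is given for them. Mixed cells held 239 of the 554 Mmp2 UMIs in kept cells, more than the 210 in stromal-like cells. Among 278 stromal-like cells, 84 held Mmp2, 99 held Mmp14, 192 held Timp2 and 49 held all 3, the genes of the membrane complex that activates Mmp2. Cells with Mmp2 were deeper (median 10739.5 UMIs against 3430), so the joint detection is a description.

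Mmp7 was the gene with the most uneven spread. Injury/keratin-gated cells held 218 of its 632 UMIs in kept cells, at 22.4 CPM, and libraries 1 to 5 had 1.31, 1.58, 91.5, 7.05 and 0 CPM. Library 3 stood alone, with 199 of the 218 UMIs. The log2 ratio to proximal tubule-like cells (0.245 CPM) was 6.51 (6.06 to 6.99), and within libraries 1, 2 and 3 it was 2.44, 2.47 and 7.69. In library 4, with 11 UMIs against 0, the lower bound of the ratio was 5.64. Without library 3 the pooled ratio was 3.89. The cells were then split by 7 urothelial genes (Upk1a, Upk1b, Upk2, Upk3a, Krt5, Krt15 and Psca), a list chosen after the leading genes of this gate had been seen. The 219 cells with at least 2 of them held 204 of the 218 Mmp7 UMIs, at 88.2 CPM (76.5 to 101), and 157 of these cells were in library 3. The other 986 cells held 14 UMIs, at 1.88 CPM (1.03 to 3.16), a log2 ratio of 5.55 (4.77 to 6.45) between the 2 sets. In those 986 cells the log2 ratio to proximal tubule-like cells was 2.94 (1.97 to 3.82). Havcr1, the kidney injury receptor of the proximal tubule, was at 13 CPM in the first set and 299.8 CPM in the second, and Krt19 at 3645 and 41.8 CPM. Most of these UMIs were in library 3, where 157 cells with urothelial genes held 194 Mmp7 UMIs and the 116 others 5. In library 4, 16 such cells held 9 UMIs and the 166 others 2. In libraries 1 and 2 the counts were too low to compare, with 1 UMI in 20 such cells and 3 in 363 others, and with 0 in 22 and 4 in 268.

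Tubule classes apart from the injury/keratin gate held Mmp7 in a few cells. In thick ascending limb-like cells it was at 12.6 CPM, and at 11.4, 49.5, 8.43, 0 and 0 CPM in libraries 1 to 5, but 14 of 1381 cells held it and 10 of these held 99 of 103 UMIs. In distal convoluted tubule-like cells 8 of 380 cells held 27 UMIs. Ungated cells held 168 UMIs, of which 87 were in 1 cell. An antisense gene, AV064505, overlaps Mmp7 in the annotation.

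Timp1 was highest in fibroblast-like cells, at 1539 CPM (1348 to 1749, 234 UMIs), against 35.3 CPM in endothelial-like cells, a log2 ratio of 5.45 (4.97 to 5.96), or 5.70 without library 3. Endothelial-like cells were at 12.4, 16.1 and 112 CPM in libraries 1 to 3, so library 3 was the highest there too and held 31 of the 42 UMIs. Of the fibroblast-like UMIs 160 were in the 12 cells of library 3, 10 cells held 207 and 1 cell held 91. Fibroblast-like cells without a UMI of Acta2, smooth muscle actin, were at 2944 CPM and those with it at 493 CPM, but 11 of the 18 cells without it were in library 3 and 8 of the 13 with it in library 1, so the library and the Acta2 split cannot be told apart. Pericyte/smooth muscle-like cells were at 54.5 CPM. Outside the stroma the next class was the thick ascending limb-like, at 58.9 CPM. There libraries 1 to 5 had 5.18, 4.3, 86.1, 2.87 and 0 CPM, so 470 of the 480 UMIs came from library 3. The 480 UMIs of all libraries were spread over 201 cells of the class. Proximal tubule-like cells held 0.784 CPM, of which the Havcr1-positive cells had 1.95 and the others 0.668 CPM. Within libraries 1, 2 and 4 the values were 0.918 and 0.518, 1.52 and 0.241, and 0.848 and 0.101 CPM, which rest on 1, 5 and 1 UMIs in the Havcr1-positive cells, and within library 3 they were 2.26 and 2.05 CPM, and 1731 of the 2260 Havcr1-positive cells were in that library.

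Timp2 followed the stromal-like cells, at 631 CPM in fibroblast-like and 432 CPM in pericyte/smooth muscle-like cells, where libraries 1 to 3 had 389, 503 and 301 CPM. It was at 233 CPM in podocyte-like cells, though 39 of the 42 UMIs came from 10 of the 76 cells. Macrophage-like cells were at 91.3 CPM, with 66.4, 161, 24, 65 and 47.9 CPM in libraries 1 to 5, so library 2 was the highest and library 3 the lowest. The Gpnmb-positive macrophage-like cells held 169 CPM against 57.3 CPM (log2 ratio 1.56, 1.31 to 1.81), with 222 against 108 CPM in library 2, 26.5 against 23.7 CPM in library 3 and 115 against 24 CPM in library 4. Proximal tubule-like cells held 1.01 CPM. The log2 ratio of fibroblast-like to proximal tubule-like cells was 9.29 (8.92 to 9.65). It was 10.01 without library 1, 9.94 without the cells of highest Scrublet doublet score and 8.69 with the mean of each cell's CPM. Among proximal tubule-like cells, the 534 with a UMI of Vcam1, an adhesion molecule of failed tubule repair, had 11.1 CPM against 0.768 CPM in the rest. In libraries 1 and 2 this was 22.9 against 1.26 and 9.26 against 0.976 CPM, and the 53 and 29 Vcam1-positive cells of libraries 3 and 4 held no Timp2 UMI, where 3 UMIs would have made 8.15 and 8.98 CPM, so a level near that of library 2 could hardly be told from 0 there. Other genes of non-tubule classes were also higher in the pooled Vcam1-positive cells, with log2 ratios of 3.88 for Mmp2 (6 UMIs), 2.73 for Mmp14 (10 UMIs), 2.31 for Timp1 (17 UMIs) and 1.95 for Mmp12 (22 UMIs). Mmp9, Mmp8 and Mmp19 were at 0.487, 0.0803 and 0.396 CPM in the Vcam1-negative cells. In the Vcam1-positive cells Mmp9 had 1 UMI and Mmp8 and Mmp19 had 0, too few to be told from those levels. Mmp2 was at 4.4 CPM in library 1 and 0.343 CPM in library 2. The Mmp12 ratio is pooled only, and proximal tubule-like cells of library 2 held more Mmp12 than the class as a whole. The part of the library mix in that ratio was not tested. The part of RNA from other cells or of doublets in these values was not tested. In injury/keratin-gated cells Timp2 also went with the urothelial genes, at 89.5 CPM with them and 9.96 CPM without.

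Timp3 had the widest range of classes, and 72.4% of its UMIs in kept cells were in proximal tubule-like cells, at 2246 CPM. Libraries 1 to 5 had 1995, 2014, 2618, 2435 and 2053 CPM, a narrow range beside those of the metalloproteinases. Endothelial-like cells were higher, at 4152 CPM (4037 to 4269), with 3863, 4432 and 4095 CPM in libraries 1 to 3. The log2 ratio to proximal tubule-like cells was 0.89 (0.85 to 0.93), and 0.95, 1.14 and 0.65 within those libraries. The endothelial-like cells were also split by Ehd3 and by Plvap, both markers of their gate. Cells with Ehd3, a glomerular endothelial gene, had 3781 CPM and the others 4306 CPM, with 3862 and 3864 CPM within library 1 and 3693 and 4984 CPM within library 2. Cells with Plvap, a gene of fenestrated capillaries, had 4595 CPM and the others 3655 CPM, with 4419.5 and 3010 CPM within library 1, 4751 and 4216 CPM within library 2, and 4114 and 4068 CPM within library 3. Pericyte/smooth muscle-like cells were at 1021 CPM, podocyte-like cells at 1311 CPM and thick ascending limb-like cells at 557 CPM. Injury/keratin-gated cells with urothelial genes were at 408 CPM, against 2002 CPM in the others. In leukocyte classes Timp3 ran from 121 CPM in dendritic cell-like to 386 CPM in B cell-like cells, beside 365 to 1274 CPM in the low-UMI barcodes described below. Proximal tubule markers put the free RNA in T/NK-like cells at 10.6% to 34.4% and in B cell-like cells at 14.6% to 41.6% of UMIs by library, and its part in the leukocyte Timp3 was not tested. Thinned to 1000 UMIs, 83.6% of endothelial-like and 73.3% of proximal tubule-like cells held Timp3, against 10.1% of T/NK-like cells.

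**Figure D3:**
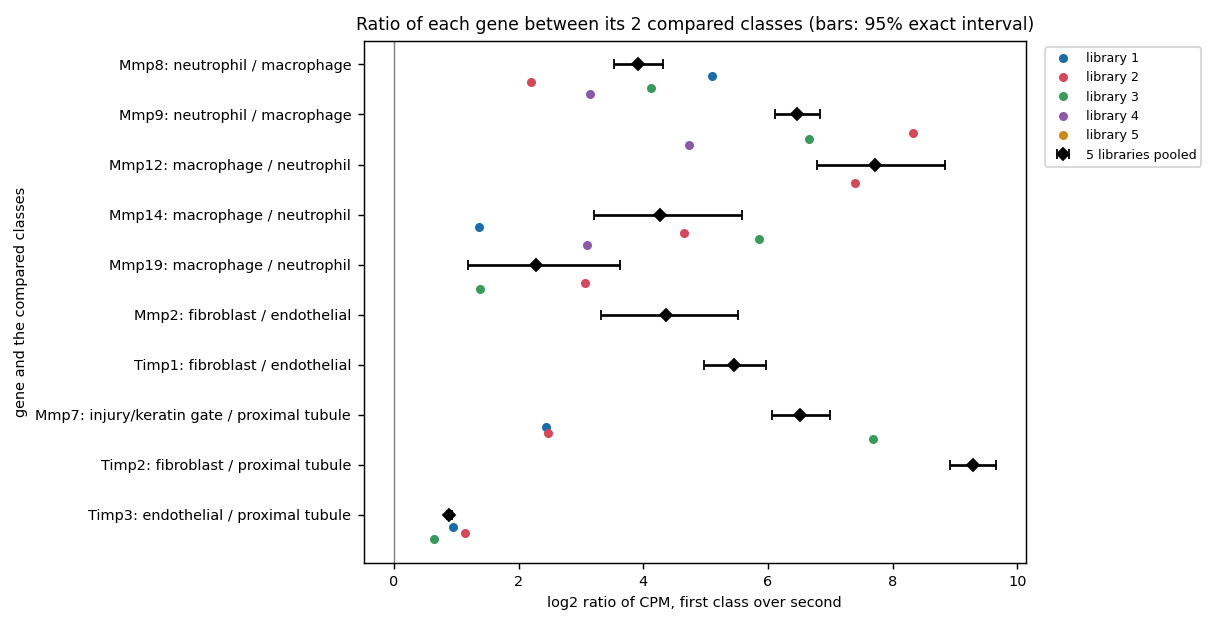
Log2 ratio of CPM between the 2 classes compared for each gene, pooled over the libraries (diamonds, with 95% exact intervals) and within each library that had at least 20 cells of both classes and UMIs in both (coloured points below the diamond). The pairs and their order were fixed with earlier results of these data known, so ratios above 0 were foreseen. Pooled ratios run from 0.89 for Timp3 to 9.29 for Timp2, and the library points spread most for Mmp7, from 2.44 to 7.69.

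**Figure D4:**
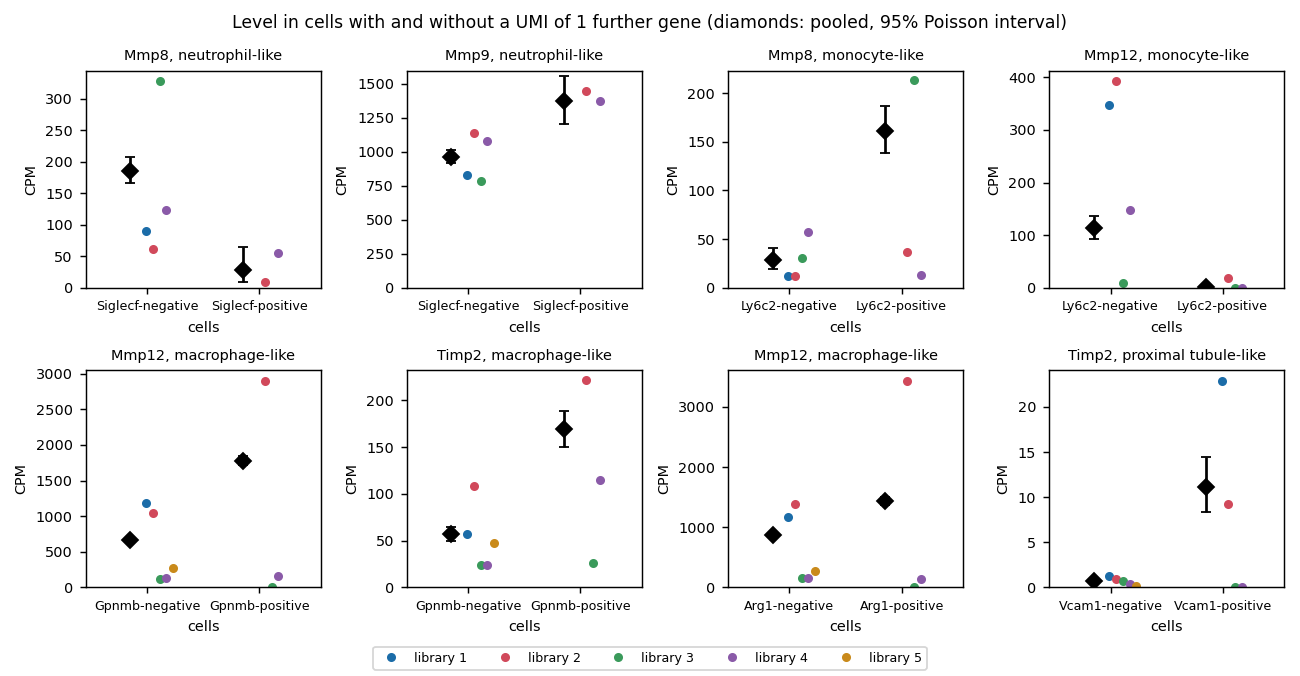
Level in CPM of Mmp8, Mmp9, Mmp12 and Timp2 in cells with and without a UMI of 1 further gene, pooled (diamonds, with 95% Poisson intervals) and by library with at least 20 such cells (coloured points). Mmp12 in Gpnmb-positive macrophage-like cells was at 2899.9 CPM in library 2 and 6.63 CPM in library 3. In libraries 2 and 4, those drawn for both kinds of cell, Mmp8 was lower in Siglecf-positive neutrophil-like cells, where it rested on few UMIs.

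The other genes of the pathway were taken from fixed lists of metalloproteinases, inhibitors, activators, binding partners, ADAM and ADAMTS proteases and matrix substrates. Of 65 genes, 45 had at least 100 UMIs in gated cells, and 21 of these were enriched in stromal-like, 14 in myeloid-like, 20 in endothelial-like and 2 in tubule-like cells, against the shares of 12.1%, 10.1%, 11.5% and 10.9% over all genes. Among the substrates, 7 of 9 were enriched in stromal-like cells, led by the fibrillar collagens Col1a1 (373 CPM) and Col3a1 (385 CPM), both also gate markers, and the elastic fibre gene Eln (317 CPM against 0.737 CPM in other gated cells). The myeloid-like cells were led by Mmp13, a collagenase (22.1 CPM), Mmp25, a membrane-bound enzyme of leukocytes (12.2 CPM), and Vcan, a proteoglycan and gate marker (65.5 CPM). The endothelial-like cells were led by Thbs2, a matrix protein that helps clear Mmp2 (164 CPM), Serpine2, a protease inhibitor (324 CPM), and Plat, the tissue plasminogen activator (629.6 CPM). In tubule-like cells Klk1, kallikrein (224 CPM), and the inhibitor Tfpi2 (18.8 CPM) were the 2 enriched genes. Of 16 further metalloproteinases, 5 reached 100 UMIs. The ADAM and ADAMTS proteases had 3 of 8 enriched in stromal-like, 3 in myeloid-like and 5 in endothelial-like cells.

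The genes with the most similar pattern were sought over 59 sums of UMIs, each of 1 class in 1 library with at least 20 cells, among 10206 genes with at least 1000 UMIs that were not gate markers. Fibroblast-like cells reached 20 in no library. That class, where Mmp2, Mmp14, Timp1 and Timp2 were highest, is therefore absent from the sums. Sums from the same library share its depth and background, so the correlations are descriptions. Mmp8 was closest to Clec4e, which codes the receptor Mincle (Pearson r = 0.919 of log2(CPM + 1)), Clec4d (0.904) and Trem1 (0.902), all receptors of myeloid cells. Such sums compare classes and do not show that both genes are in the same cells. The paper lists Clec4e and Mmp8 as high in different neutrophil clusters. Mmp9 was closest to Acod1 (0.865), Mmp12 to Mgl2 (0.853) and Mmp19 to Ccl9 (0.838). Mmp14 had lower values, with Emp1 at 0.710, Vat1 at 0.709 and Timp2 at 0.685. Timp2 was closest to Cald1 (0.784), a contractile cell gene, Timp1 to Anxa3 (0.740) and Timp3 to Zcchc14 (0.845). For Mmp2 and Mmp7 the closest genes were Bgn (0.610) and Cgn (0.544). Mmp8 thus had the closest partner of the 10 genes and Mmp7 the most distant.

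Low-UMI barcodes, those at ranks 45000 to 90000 of each library, gave a view of RNA outside the kept cells. In library 4 Mmp2 was at 113 CPM in these barcodes (105 to 122, 699 UMIs) and at 0.274 CPM in kept cells, a log2 ratio of 8.69 (7.93 to 9.57) over the kept cells. The ratio was also high in libraries 3 (17.3 against 0.0632 CPM) and 5 (16.7 against 0.115 CPM), and its log2 value was -2.07 in library 1 and -0.63 (-2.53 to 0.75) in library 2. The fibroblast markers moved with it, at 5578 CPM in the low-UMI barcodes of library 4, 909.9 in library 3 and 996 in library 5, against 29.7 and 87.3 in libraries 1 and 2. Libraries 4 and 5 together held 1 fibroblast-like cell, but the gate itself asked for 5 times the ambient share of the same library. In library 4 that limit lies above the 20661 CPM of these markers in gated fibroblast-like cells, so the number of such cells there is set in part by the ambient level and is no count of fibroblasts. Timp2 (133 against 4.13 CPM), Mmp14 (34.7 against 2.7 CPM), Timp1 (24.2 against 1.7 CPM) and Mmp19 (8.72 against 0.626 CPM) were also higher in the low-UMI barcodes of library 4. Of the genes highest in myeloid-like cells, Mmp19 was thus higher in these barcodes, while Mmp8, Mmp9 and Mmp12 were at 0.323, 4.36 and 1.45 CPM there, against 1.12, 8.14 and 3.85 CPM in kept cells. In library 2 Mmp12 was higher in low-UMI barcodes, at 116 against 73.6 CPM, and proximal tubule-like cells of that library held 4.55 CPM of it. Of the 278 stromal-like cells, 122 were in library 1 and 105 in library 2. The stromal-like UMIs of Mmp2, Mmp14, Timp2 and Timp3 came mainly from those libraries. For Timp1, 160 of the 342 stromal-like UMIs were in the 12 fibroblast-like cells of library 3. The part of free RNA or of cells below the calling limit in these values was not tested.

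**Figure D5:**
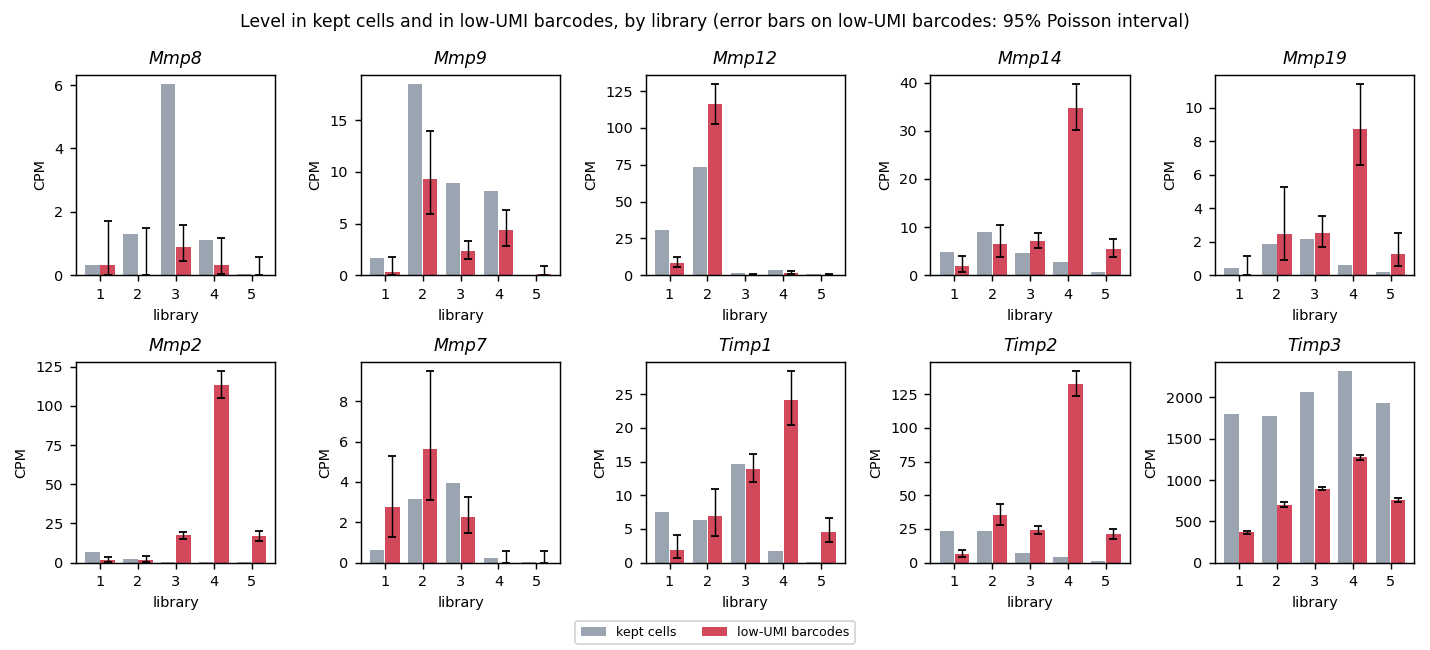
Level in CPM of the 10 genes in kept cells (grey) and in low-UMI barcodes (red, with 95% Poisson intervals) of each library, on linear axes that start at 0. In library 4 Mmp2 was at 113 CPM and Timp2 at 133 CPM in low-UMI barcodes, far above the kept cells, while Timp3 was higher in kept cells of all 5 libraries.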

How the data were processed

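The authors deposited 1 raw matrix of UMI counts per gene and barcode, made with Cell Ranger 6.0 on mm10 per the labels, with 10x 3′ libraries from enzymatically digested kidneys. It joins 5 libraries, and no label ties a barcode number to a condition, so the matrix was treated as 1 pooled sample without a test. Barcodes were called as cells in 2 steps per library. A first step took every barcode whose UMI total reached 10% of the 99th percentile among the 3000 largest (6541 to 12196), and a second step added others by a test against the profile of barcodes at ranks 45000 to 90000 at an adjusted p of 0.01 (2617 to 8763). This gave 70553, and 512 with under 200 genes and 12213 above 25% mitochondrial counts were left out. Kept cells held 51115227 to 95006767 UMIs per library. Classes were set by marker gates at 5 times the ambient share, with at least 2 markers detected, and for proximal tubule at 1 time that share with at least 3 markers. Cells that passed gates of more than 1 lineage, or tied between gates, were called mixed. Outside the injury/keratin gate, a proximal tubule marker share of at least 50% of the library's median in proximal tubule-like cells made a cell mixed. CPM is per 1000000 UMIs of the summed cells, with exact Poisson intervals, and ratios have exact conditional binomial intervals. UMIs of 1 cell were taken as independent, so intervals are too narrow. Doublets were scored with Scrublet, in an alternative only. All 10 genes were named. Of the pathway lists the 3 genes with the largest ratio per lineage were named, and of similar genes the 3 with the highest r, a few of which are printed. The 10 genes, the lists, the gates and the compared pairs of classes with their order were chosen with earlier results of these data known. The 2 alternatives without shared barcodes and without urothelial genes were added after seeing the data. Python 3.11.15, numpy 2.4.6, scipy 1.17.1, scanpy 1.11.5 and leidenalg 0.10.2 were used.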

Additional observations from a re-analysis of the deposited data

Results flagged for a closer look

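Low-UMI barcodes lie outside the comparisons of cells, and in them 12 values with more than 3 UMIs and an interval above an equal level were at least 4 times the level in the kept cells of the same library. Mmp9 in library 5 had a ratio of that size on 1 UMI, at 0.159 against 0.0383 CPM, with a log2 interval from -3.83 to 6.32. Mmp2 was at 17.3, 113 and 16.7 CPM in libraries 3, 4 and 5. Mmp14 was at 34.7 and 5.4 CPM, Mmp19 at 8.72 and 1.27 CPM, Timp1 at 24.2 and 4.61 CPM and Timp2 at 133 and 21 CPM in libraries 4 and 5. Mmp7 was at 2.78 CPM in library 1, where it rested on 9 UMIs. Fibroblast markers were at 5578 CPM in the low-UMI barcodes of library 4 and at 996 CPM in those of library 5. Whether these UMIs come from free RNA or from cells below the calling limit was not tested.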

How the results depend on the processing

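Under 19 alternatives none of 187 log2 ratios changed sign. Their direction had been fixed with earlier results of these data known, so the kept sign speaks only to the processing. The number of genes highest in stromal-like and in myeloid-like cells stayed within 1.5 times its value of 4 under each. The number highest in endothelial-like cells was 2 in place of 1, and in tubule-like cells 0 in place of 1, with the gate at 10 times the ambient share, with mixed cells kept, with the mean of each cell's CPM, and without cells with 2 or more urothelial genes. With cells thinned to 1000 UMIs the tubule-like number was also 0. Leaving out 1 library gave 1 to 2 for endothelial-like and 0 to 1 for tubule-like cells, with the change without library 1 or library 3. The Mmp7 ratio ran from 2.97 without cells with urothelial genes to 8.81 with classes from Leiden clusters, and the Mmp8 ratio was 1.63 with those clusters. The Mmp9 ratio was 7.46 without cells of highest Scrublet score, and the Timp1 ratio 6.93 after thinning. The Mmp12 ratio was 9.07 with ambient UMIs subtracted. The cause was not tested. Clusters gave no fibroblast-like class, so its 3 ratios could not be given. They also gave no monocyte-like class, and the clusters named for the injury/keratin gate held 231 of its 1205 cells. The cluster ratios of Mmp7 and Mmp8 thus compare other sets of cells than the gates do. No paired analysis was possible because the labels give each condition 1 replicate and the results come from no test. Classes of the same library are set side by side in the report, as values only. Depth limits small classes: 3 UMIs make 27.4 CPM in pericyte/smooth muscle-like cells of library 3.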
